A study of Mus musculus with 182 samples.

Results

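Germinal centre B cells with mostly Ighg1 among their heavy chain constant transcripts were set against those with mostly Ighg2b or Ighg2c. The cells came from mouse spleen and were profiled by single-cell RNA sequencing. Isotype was read from transcripts only, and class switching of the DNA was not examined. The 36 cells compared were chosen by their heavy chain constant transcripts, out of 182 cells in all. For each cell the values of Ighm, Ighd, Ighg1, Ighg2b, Ighg2c, Ighg3, Igha and Ighe were summed, and 169 cells had a sum of at least 10. Of these, 14 cells had over 50% of the sum in Ighg1 and are called IgG1 cells, and 22 cells had over 50% in Ighg2b (13 cells) or in Ighg2c (9 cells) and are called IgG2b or IgG2c cells. The remaining cells with a sum of at least 10 comprised 123 IgM cells, 5 IgG3 cells, 4 cells with no gene over 50%, and cell 168, with 57.1% in Ighd.

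The labels give both kinds of cell the same immunisation and sorting protocol. C57BL/6 mice had received NP(23)-KLH, a hapten on a carrier protein, in alum with LPS, and spleens were taken on day 13. B220+ cells high for Fas and GL7 were sorted after depletion of T cells, CD11c+ cells and IgD+ cells, and the sample labels also give them as NP-binding. The Fluidigm C1 chip was used to isolate single cells, and each library is taken as 1 cell. Cells are numbered here as in the columns of the deposited table. The labels give neither the number, the age nor the sex of the mice, and no animal is tied to a cell, so the cells were treated as 1 biological sample.

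A B cell changes isotype by class switch recombination, in which DNA is cut in switch regions and the rearranged variable segment is joined to another constant gene. In mice, IL-4 acting through STAT6 is known to direct switching to IgG1, IFN-gamma acting through T-bet to IgG2c, and TGF-beta to IgG2b. In the germinal centre, cells divide and mutate in the dark zone and are selected in the light zone, and switched cells of different isotypes share both places.

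The 3 constant genes that define the cells lie on the minus strand of chromosome 12 (GRCm38, the mm10 build, GENCODE M21 annotation): Ighg1 at chr12:113325240-113330523, Ighg2b at chr12:113302965-113307933 and Ighg2c at chr12:113285325-113288932. Their hinge exons show how far the transcripts differ. The hinge exon, which is exon 2 of each gene, is given below from the GENCODE M21 transcripts, 5′ to 3′, with in-frame cysteine codons in capitals.
Ighg1, chr12:113329844-113329882, minus strand: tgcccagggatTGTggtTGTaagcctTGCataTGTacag
Ighg2b, chr12:113307261-113307326, minus strand: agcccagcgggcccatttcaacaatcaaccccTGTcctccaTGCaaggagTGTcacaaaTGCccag
Ighg2c, chr12:113288263-113288325, minus strand: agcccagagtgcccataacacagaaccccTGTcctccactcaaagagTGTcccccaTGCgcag
The hinge of Ighg1 is the shortest of the 3, with 39 bases and 4 cysteine codons, against 66 bases and 4 cysteine codons in Ighg2b and 63 bases and 3 cysteine codons in Ighg2c. Over exons 1 to 4, 0 of 1002 stretches of 75 bases, the read length in the labels, were shared between Ighg1 and either of the other genes, also when 2 mismatches were allowed. Ighg2b and Ighg2c are closer: 6 of 1040 such stretches of Ighg2b were identical in Ighg2c, and 142 (13.7%) matched it within 2 mismatches. How the authors assigned reads that fit both is not stated, so the split between IgG2b and IgG2c cells is less certain than that from IgG1 cells.

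The choice of cells rests on these values, which are given as a description. The dominant gene held 56.4% to 99.8% of the heavy chain sum in the IgG1 cells, with a median of 98.4%, and 53.6% to 100.0% in the IgG2b or IgG2c cells, with a median of 93.4%. The sum ranged over cells from 15.9 to 609.7 in IgG1 cells (median 286.7) and from 12.8 to 4064.8 in IgG2b or IgG2c cells (median 206.1). The dominant gene exceeded 80% of the sum in 10 of 14 IgG1 cells and in 14 of 22 IgG2b or IgG2c cells. The other cells carried a second isotype.

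Ighm was the usual second gene. It held over 10% of the sum in 5 of 14 IgG1 cells and in 6 of 22 IgG2b or IgG2c cells, and reached 43.6% in IgG1 cell 42 and 38.7% in IgG2b cell 91. Cell 23 held 59.4% Ighg2c and 40.4% Ighg2b, cell 59 held 62.6% Ighg2b and 36.3% Ighg2c, cell 96 held 22.8% Ighg3 beside Ighg2b, and cell 93 held 15.8% Ighe, the IgE gene, beside Ighg2c. Just outside the choice were cell 155, with 46.2% Ighg1, and cell 53, with 42.7% in Ighg2b or Ighg2c. No doublet caller was run, and whether such cells are single cells with 2 transcripts or captures of 2 cells was not tested.

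**Figure D1:**
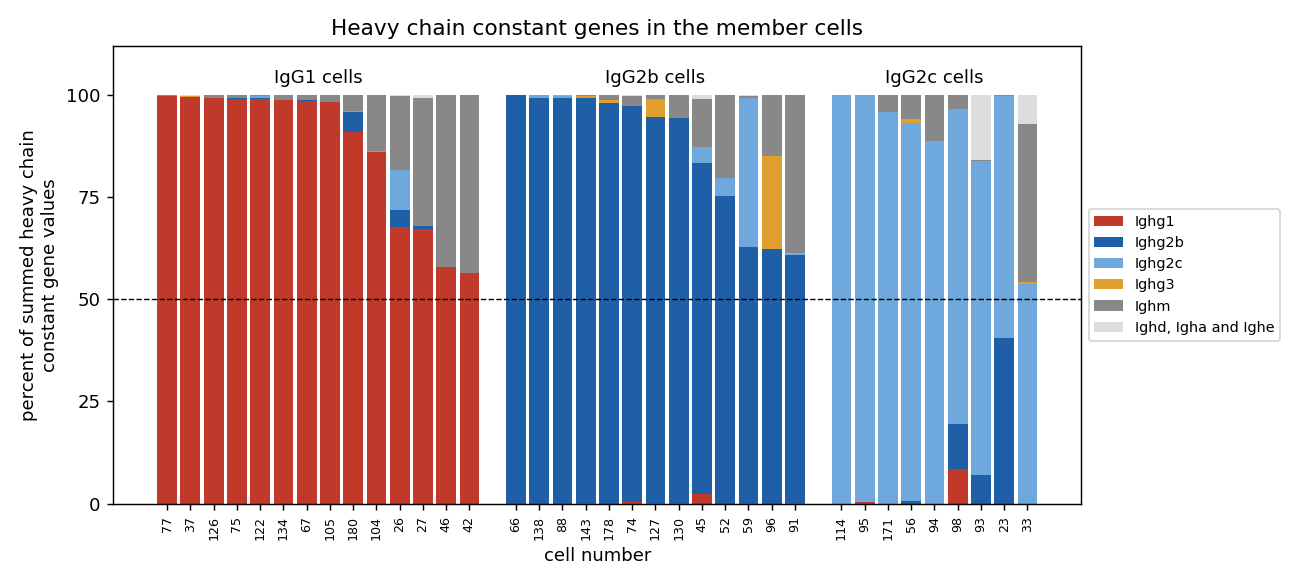
Percent of the summed heavy chain constant gene values held by each gene (y axis) in each of the 36 cells (x axis, cell number), ordered by the dominant gene and its share, with a dashed line at 50%. The 14 IgG1 cells stand on the left, and Ighm in grey is the main second gene in cells such as 42 and 46.

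The columns of the deposited table fall into 2 sets, set 1 (cells 1 to 96) and set 2 (cells 97 to 182). The sets share no exactly equal non-zero value. They are treated as batches known only from the values, and many comparisons, though not all, are also given within them. IgG1 cells numbered 8 in set 1 and 6 in set 2, and IgG2b or IgG2c cells 14 and 8. Detection of a gene in a cell means a value of 1 or more. The number of genes detected had a median of 1895 in IgG1 cells and 1893.5 in IgG2b or IgG2c cells. The number of genes above their lowest value had a median of 2530 in IgG1 cells and 2475 in IgG2b or IgG2c cells. The read depth of the cells is unknown. IgG1 cell 122 had the largest summed value of the 36 cells, 3443762.5 against at most 765291 in any other IgG1 cell and 492532 in any IgG2b or IgG2c cell.

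Both sides carried the B cell and germinal centre transcripts that the sort implies. Cd79b, a signalling chain of the B cell receptor, was detected in all 36 cells. Cd79a was detected in 14 of 14 IgG1 cells and 20 of 22 IgG2b or IgG2c cells, and Ms4a1, which encodes CD20, in 14 IgG1 cells and 21 IgG2b or IgG2c cells. Mef2b, a transcription factor that activates Bcl6, was detected in 13 of 14 IgG1 cells and 19 of 22 IgG2b or IgG2c cells. Bcl6, the repressor that maintains the germinal centre state, was found in 9 of 14 IgG1 cells and 14 of 22 IgG2b or IgG2c cells. S1pr2, a receptor that confines cells to the germinal centre, was found in 6 IgG1 cells and 12 IgG2b or IgG2c cells, and Fas in 8 IgG1 cells and 15 IgG2b or IgG2c cells. Transcripts of other cell types varied. Of 6 T cell genes in the table only Lck was detected, in 6 of 14 IgG1 cells and 12 of 22 IgG2b or IgG2c cells, and 0 of 5 NK cell genes were detected in any of the 36 cells. Of 10 myeloid genes, 7 were undetected on each side, and 2 or more were detected in 0 IgG1 cells and 2 IgG2b or IgG2c cells. At least 1 of 5 stromal genes was detected in 11 of 14 IgG1 cells (summed value up to 428.7) and 10 of 22 IgG2b or IgG2c cells (up to 648.2). One of these 5 is Cr2, which B cells also express and which was detected in 10 IgG1 cells and 8 IgG2b or IgG2c cells. The level difference of Cr2, given below, had opposite signs in the column sets. At least 1 of 3 erythroid and platelet genes was detected in 2 IgG1 cells (summed value up to 2.25) and 1 IgG2b or IgG2c cell (166.8). The marginal zone and B1 B cell list has 8 genes in the table, Cr2 among them. At least 1 was detected in 13 of 14 IgG1 cells (median summed value 45.9) and 10 of 22 IgG2b or IgG2c cells (1.22). Of these 8, 2 or more were detected in 4 IgG1 cells and 4 IgG2b or IgG2c cells. At least 1 of 8 naive and follicular B cell genes was detected in 13 IgG1 cells (88.8) and 20 IgG2b or IgG2c cells (83.3). The part of all these transcripts in the differences below was not tested.

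All other genes were then compared. The level of a gene was the mean of log2(value + 1) over the cells of a side, and the difference, IgG1 minus IgG2b or IgG2c, was fitted with a term for the column set. Of 17034 genes, 2963 were detected in at least 8 of the 36 cells and were compared. A gene was past the level rule when the difference was at least 2 on the log2 scale and had the same sign in both sets. No p-value, standard error or interval was computed for a level, because all cells count as 1 sample. The level rule is a rule of size, and it does not show that a gene would differ between mice.

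By this rule 88 genes, 2.97% of those compared, differed between the sides. In IgG1 cells 39 genes (1.32%) were higher and 49 (1.65%) were lower. The median difference over all genes compared was 0.03, with 1518 genes above 0 and 1445 below. The same rule between the 13 IgG2b and the 9 IgG2c cells took in 180 genes (6.07%), with 86 higher and 94 lower in IgG2b cells. Thus more genes passed between the 2 kinds of cell within 1 side than between the sides, with fewer cells in that comparison.

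**Figure D2:**
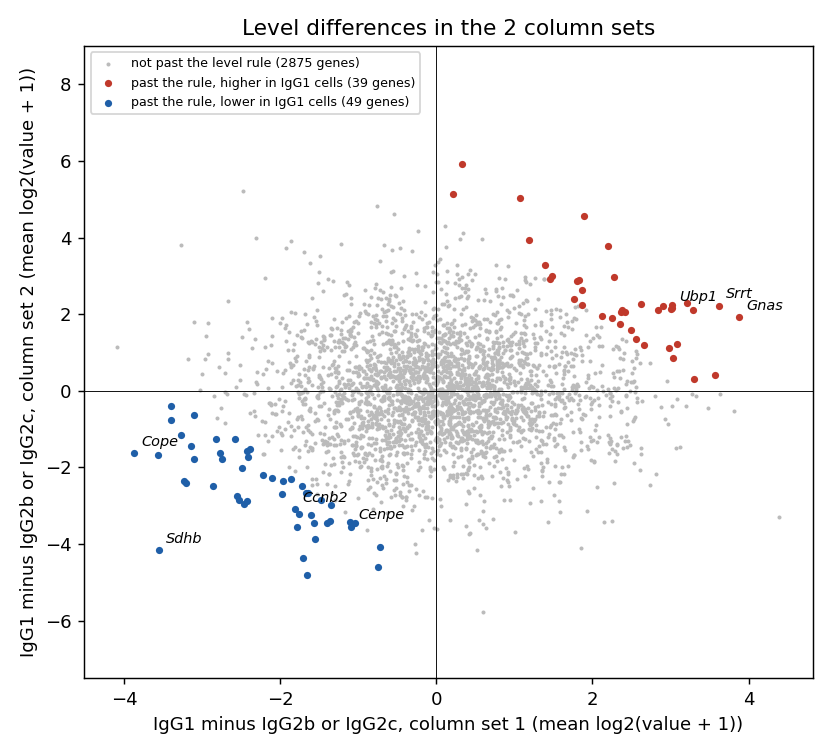
Difference in mean log2(value + 1), IgG1 minus IgG2b or IgG2c cells, in column set 1 (x axis) and column set 2 (y axis) for the 2963 genes compared. Red points are the 39 genes past the level rule and higher in IgG1 cells, blue points the 49 lower in IgG1 cells, and grey points the others, which centre on 0 in both sets.

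Among the genes higher in IgG1 cells, the leading ones were Gnas, Srrt, Lig1 and Fermt3. Gnas, the stimulatory G protein alpha subunit, ranged from 2.12 to 6933 in IgG1 cells (median 250.4) and from 0 to 1529 in IgG2b or IgG2c cells (median 25.8). All 14 IgG1 cells and 20 of 22 IgG2b or IgG2c cells had it detected, and the ranges overlapped. The level difference was 3.09, with 3.88 in set 1 and 1.93 in set 2. Gnas had a median of 27.2 in the 123 IgM cells, close to that of the IgG2b or IgG2c cells.

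Srrt, an RNA processing factor that works with the cap-binding complex, had medians of 117.2 in IgG1 cells (0.980 to 1803) and 2.27 in IgG2b or IgG2c cells (0 to 456.0). Its difference was 3.06 (3.62 and 2.22 in the sets), and its median in IgM cells was 2.57. Srsf9 and Prpf38b, both of the splicing machinery, differed by 2.66 each, and Pan3, a subunit of a poly(A)-shortening enzyme, by 2.58. For Pan3 nearly all of the difference came from set 2 (0.32 in set 1 and 5.92 in set 2). Pan3 was below the rule without one or another of 3 of the 36 cells, while the other 23 leading genes, 11 higher and 12 lower, stayed past it whichever cell was left out.

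Gsn, which encodes the actin-severing protein gelsolin, differed both in level and in how many cells had it. Gsn was detected in 10 of 14 IgG1 cells (71.4%, exact Clopper-Pearson 95% interval 41.9 to 91.6) and in 4 of 22 IgG2b or IgG2c cells (18.2%, 5.19 to 40.3). These intervals, like the others below, cover counting error over cells only. In IgM cells Gsn was detected in 24.4%. Values ran from 0 to 294.2 in IgG1 cells (median 9.23) and from 0 to 94.8 in IgG2b or IgG2c cells (median 0.011), a level difference of 2.70 that was 3.02 in set 1 and 2.23 in set 2. Fermt3, which encodes the integrin activator kindlin-3, differed by 2.84, with detection in 13 of 14 IgG1 cells and 12 of 22 IgG2b or IgG2c cells. Both act where the actin cytoskeleton meets the membrane.

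Swap70 encodes an actin-binding signalling protein of B cells that was first isolated from a complex binding switch regions. It was detected in 13 of 14 IgG1 cells (0.315 to 2365, median 156.1) and in 17 of 22 IgG2b or IgG2c cells (0 to 1603, median 15.6). The level difference was 2.62, with 2.91 in set 1 and the same sign in set 2, and within the IgG2b or IgG2c side IgG2b cells stood 0.60 above IgG2c cells. IgM cells had a lower median for Swap70, 4.02.

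Lig1, the DNA ligase that joins Okazaki fragments, differed by 2.97, with detection in 13 of 14 IgG1 cells (median 38.0) and 13 of 22 IgG2b or IgG2c cells (median 1.90). Asxl2, a chromatin regulator of the Polycomb group, differed by 2.83, Ndufa1, a subunit of respiratory complex I, by 2.81, and Ubp1, a transcription factor, by 2.67. Ndufa1 was detected in 7 of 14 IgG1 cells and 6 of 22 IgG2b or IgG2c cells.

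Genes lower in IgG1 cells were led by Sdhb, the iron-sulphur subunit of succinate dehydrogenase, which serves the citric acid cycle and the respiratory chain. Sdhb was detected in 4 of 14 IgG1 cells (28.6%, 8.39 to 58.1), where values ran from 0 to 21.3 with a median of 0.218. It was detected in 16 of 22 IgG2b or IgG2c cells (72.7%, 49.8 to 89.3), where values ran from 0 to 5338 with a median of 17.1. The difference of -3.80 was the largest of all genes compared, and it was -3.55 in set 1 and -4.16 in set 2. Within the IgG2b or IgG2c side it was uneven, with IgG2b cells 3.04 above IgG2c cells. In IgM cells 61.0% had Sdhb detected.

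Unc93b1, the chaperone that carries nucleic acid-sensing Toll-like receptors to endosomes, did not exceed 14.2 in any IgG1 cell, while IgG2b or IgG2c cells reached 2474. About the same share of cells had it on both sides, 8 of 14 IgG1 cells and 13 of 22 IgG2b or IgG2c cells, so the difference of -2.71 lay in the height of the values. Cnn2, the actin-binding protein calponin 2, was detected in nearly every cell of both sides, with medians of 10.9 in IgG1 cells (0.795 to 1287) and 258.6 in IgG2b or IgG2c cells (9.70 to 4074) and a difference of -2.92. Both genes were also higher in IgG2b than in IgG2c cells, by 2.60 for Unc93b1 and 2.09 for Cnn2.

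Taldo1, transaldolase of the pentose phosphate pathway, was detected in 1 of 14 IgG1 cells (7.14%, 0.181 to 33.9) and in 12 of 22 IgG2b or IgG2c cells (54.5%, 32.2 to 75.6). No IgG1 cell exceeded 2.68, and IgG2b or IgG2c cells reached 601.2. Its difference was -2.60, and within the IgG2b or IgG2c side IgG2c cells were the higher ones, by 2.81. Slirp, which stabilises mitochondrial messenger RNA, was likewise detected in 1 of 14 IgG1 cells and 10 of 22 IgG2b or IgG2c cells, with a difference of -2.66.

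The remaining leading genes lower in IgG1 cells have varied roles. Cope, of the coat of Golgi vesicles, differed by -2.97. The cytokine precursor gene Il16 differed by -2.88, the histone-binding protein gene Rbbp7 by -2.87, the small nucleolar RNA host gene Snhg5 by -2.80 and the complex III subunit gene Uqcrh by -2.77. Clk1, a kinase of splicing factors, differed by -2.66. Klhl6, a ubiquitin ligase adaptor needed for normal germinal centres, differed by -2.63, with detection in 9 of 14 IgG1 cells (median 3.22) and 19 of 22 IgG2b or IgG2c cells (median 29.9). Ndufa1, Uqcrh and Slirp are short genes, and some respiratory chain genes have near-identical processed copies in the genome whose reads the counting could split, so their values are less certain.

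**Figure D3:**
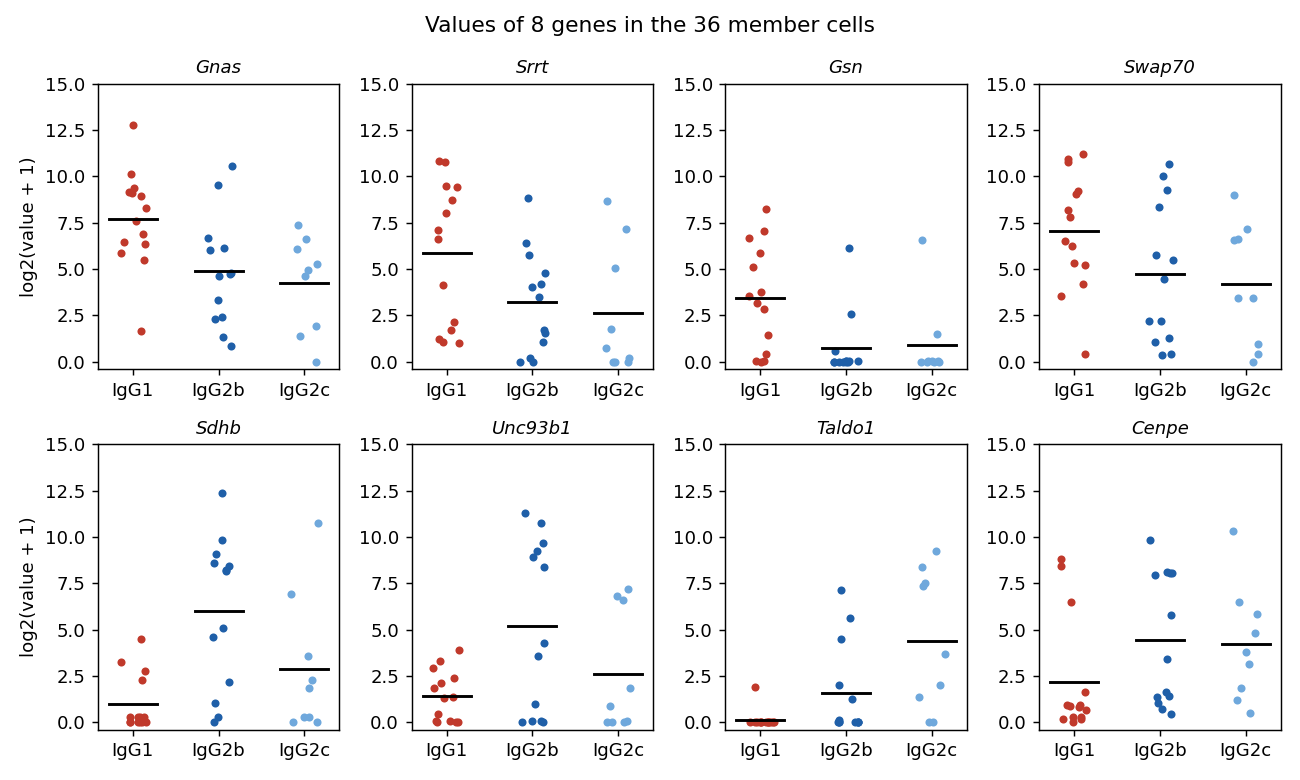
Values of 8 genes as log2(value + 1) (y axis) in the 14 IgG1, 13 IgG2b and 9 IgG2c cells, 1 point per cell, with black bars at the means. Gnas, Srrt, Gsn and Swap70 stand higher in IgG1 cells and Sdhb, Unc93b1, Taldo1 and Cenpe lower, and the points of the sides overlap for all 8 genes.

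The share of cells with a gene detected was compared in the same way, and a gene was past the share rule at a difference of at least 40 percentage points with the same sign in both sets. This took in 36 genes (1.21%), of which 13 (0.439%) were detected in more IgG1 cells and 23 (0.776%) in fewer. The filter of at least 8 of the 36 cells bears unequally on these 2 counts. A gene detected only in IgG1 cells can reach 40 points and still be dropped. One detected only in IgG2b or IgG2c cells cannot, so the counts of the 2 directions are not on an equal footing. Cenpe, the kinetochore motor that aligns chromosomes, showed the widest gap of those detected in fewer IgG1 cells, 4 of 14 IgG1 cells (28.6%, 8.39 to 58.1) against 19 of 22 IgG2b or IgG2c cells (86.4%, 65.1 to 97.1). Slc25a5, a mitochondrial ADP/ATP carrier, was detected in 3 of 14 IgG1 cells and 17 of 22 IgG2b or IgG2c cells, and Nol7, a nucleolar protein gene, in 2 IgG1 cells and 15 IgG2b or IgG2c cells. Fnbp1, a membrane-bending protein gene, was detected in 4 of 14 IgG1 cells and 17 of 22 IgG2b or IgG2c cells.

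In the other direction, Ppcs, an enzyme of coenzyme A synthesis, was detected in 9 of 14 IgG1 cells (64.3%, 35.1 to 87.2) and 2 of 22 IgG2b or IgG2c cells (9.09%, 1.12 to 29.2). Wdhd1, a replication fork protein gene, was detected in 10 IgG1 cells and 5 IgG2b or IgG2c cells. Arhgap27, a GTPase-activating protein gene, and Keap1, the adaptor through which NRF2 is degraded, were each detected in 8 IgG1 cells and 2 IgG2b or IgG2c cells. Many values lay close to the detection limit of 1, and this choice decided most of these genes. With detection set at a value of at least 5, 20 genes passed, of which 3 were among the 36. The genes named here for their shares stayed past the share rule whichever 1 of the 36 cells was left out.

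Most genes of cell division leaned 1 way. Of 30 genes of the G2/M list, which act in mitosis and its preparation, 28 were compared and 25 of them were lower in IgG1 cells, against 1445 of 2963 for all genes. The median difference was -0.73 over the list and 0.03 over all genes compared. Past the level rule were 3 of the 28 genes, all lower: Ccnb2, Tubb4b and Cenpe. Over all genes compared 1.65% were past the rule and lower.

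The median was -0.64 in set 1 and -1.40 in set 2. With both sets and the other definitions, pseudocounts or scalings tried, leaving single cells out aside, it lay between -0.42 and -1.22, with 21 to 25 of 28 genes below 0.

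Ccnb2, which encodes cyclin B2, the partner of CDK1 at mitotic entry, was detected in 0 of 14 IgG1 cells, where an exact interval allows up to 23.2% of cells. It was detected in 10 of 22 IgG2b or IgG2c cells (45.5%, 24.4 to 67.8) and in 35.8% of IgM cells. Its highest value was 0.780 in IgG1 cells and 985.1 in IgG2b or IgG2c cells, and its level difference was -2.33. Tubb4b, a beta-tubulin of the spindle, had medians of 0.664 in IgG1 cells (0.003 to 83.4) and 4.79 in IgG2b or IgG2c cells (0.003 to 1206), a difference of -2.14. Beta-tubulin genes are similar in sequence, so its reads may be split among them. Cenpe had medians of 0.781 in IgG1 cells (0 to 456.9) and 11.2 in IgG2b or IgG2c cells (0.338 to 1280), a difference of -2.08 that was -1.09 in set 1 and -3.54 in set 2. When each of the 36 cells was left out in turn, Ccnb2 stayed past the level rule 34 times, Tubb4b 26 times and Cenpe 21 times.

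Genes short of the rule differed in the same direction by smaller amounts. Top2a, which untangles DNA before division, differed by -1.82, Birc5, the survivin of the chromosomal passenger complex, by -1.67, Plk1, a mitotic kinase, by -1.53 and Cdk1 by -1.46. Cdk1 was detected in 4 of 14 IgG1 cells and 13 of 22 IgG2b or IgG2c cells. Mki67, which marks cycling cells in general, did not follow: it was detected in 12 of 14 IgG1 cells (median 62.1) and 19 of 22 IgG2b or IgG2c cells (median 53.3), a difference of -0.03. Ccna2, cyclin A2, stood 0.76 higher in IgG1 cells.

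The promoters of the 3 G2/M genes past the rule are shown because genes of mitosis are known to share promoter elements, the CCAAT box bound by NF-Y and the cell cycle homology region, whose core is TTTGAA. The windows run from 150 bases before to 25 bases after the annotated start (RefSeq, GRCm38.p6), and capitals mark CCAAT and TTTGAA on either strand.
Ccnb2, chr9:70421530-70421704, minus strand: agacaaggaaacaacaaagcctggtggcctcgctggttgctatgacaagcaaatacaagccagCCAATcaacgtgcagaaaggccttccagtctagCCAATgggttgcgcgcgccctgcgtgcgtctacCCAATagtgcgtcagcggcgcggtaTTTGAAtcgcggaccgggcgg
Tubb4b, chr2:25224678-25224852, minus strand: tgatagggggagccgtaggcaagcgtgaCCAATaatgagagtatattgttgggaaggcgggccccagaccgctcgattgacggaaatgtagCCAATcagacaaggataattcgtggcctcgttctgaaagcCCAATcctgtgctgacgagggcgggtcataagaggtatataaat
Cenpe, chr3:135212413-135212587, plus strand: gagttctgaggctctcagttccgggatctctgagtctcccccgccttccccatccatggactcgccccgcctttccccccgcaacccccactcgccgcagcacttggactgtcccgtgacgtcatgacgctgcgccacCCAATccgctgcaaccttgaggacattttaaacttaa
The Ccnb2 window holds 3 CCAAT and 1 TTTGAA match, the Tubb4b window 3 CCAAT matches and the Cenpe window 1 CCAAT match. In windows of 300 bases (250 before to 50 after the start), 24 of the 28 G2/M genes compared had an entry, and 19 of the 24 held CCAAT or its complement ATTGG and 19 held TTTGAA or its complement TTCAAA. A gene was counted when any of its windows held the motif. Over all 32851 such windows, each counted singly, 37.4% held the first motif and 17.9% the second. The shares of genes and of windows are thus not on the same basis. These matches describe the letters of the windows and do not show that a factor binds there.

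Genes of DNA synthesis leaned the other way. Of 27 S phase genes, 16 were compared and 14 were higher in IgG1 cells, with a median of 0.73, but 0 were past the level rule. The median was 0.16 in set 1, where 9 of 16 genes were higher, and 1.20 in set 2. Pcna, the sliding clamp of the replication fork, had the largest difference, 1.77 (1.74 and 1.82 in the sets). Pcna was detected in 10 of 14 IgG1 cells (0 to 888.9, median 2.33) and 8 of 22 IgG2b or IgG2c cells (0 to 15.4, median 0.078), against 38.2% of IgM cells. Rrm2, a subunit of ribonucleotide reductase, differed by 1.22 but with opposite signs in the sets, and Ccne2, cyclin E2, by -0.90.

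Counted per cell, IgG1 cells had 0 to 20 of the 30 G2/M genes detected, with a median of 11, and IgG2b or IgG2c cells had 4 to 25, with a median of 14.5. The median was 11.5 in IgG1 cells and 14.5 in IgG2b or IgG2c cells within set 1, and 11 in IgG1 cells and 14.5 in IgG2b or IgG2c cells within set 2. Of the 27 S phase genes, IgG1 cells had 6 to 21 detected (median 10.5) and IgG2b or IgG2c cells 1 to 18 (median 7.5). Their median was 9.5 in IgG1 cells and 8 in IgG2b or IgG2c cells within set 1, and 11 in IgG1 cells and 5 in IgG2b or IgG2c cells within set 2, where the gap was wider. The 123 IgM cells had medians of 11 G2/M genes (1 to 27) and 9 S phase genes (1 to 22). The IgM median for G2/M genes thus equalled that of IgG1 cells, and for S phase genes it lay between the sides. The ranges of the sides overlapped widely on both counts.

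**Figure D4:**
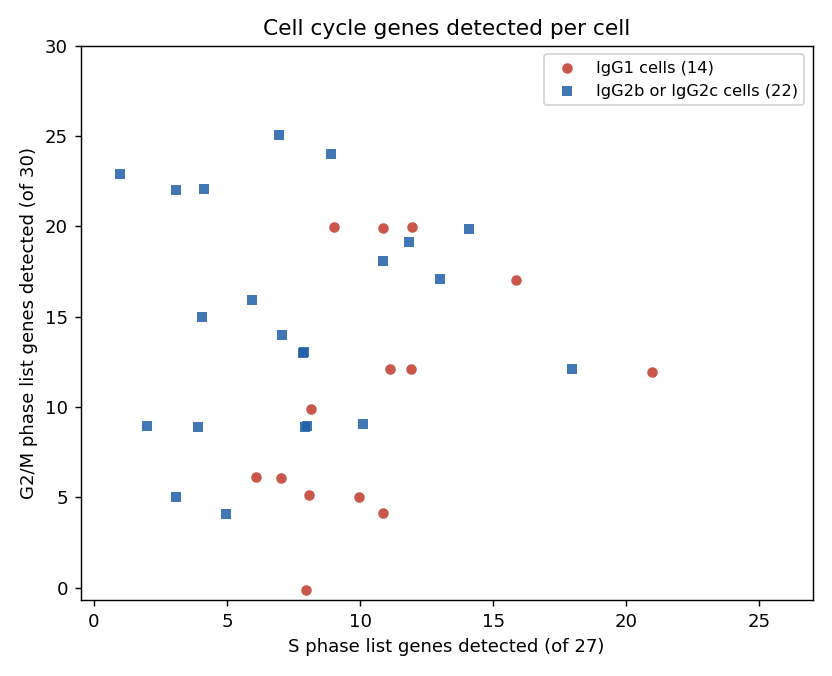
Number of S phase list genes (x axis, of 27) and of G2/M phase list genes (y axis, of 30) detected in each IgG1 cell (red circles, 14) and IgG2b or IgG2c cell (blue squares, 22), with points moved by up to 0.15 to separate ties. IgG1 cells hold at most 20 G2/M genes, and IgG2b or IgG2c cells reach 25.

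The lists of the 2 germinal centre zones were described next. Of 15 dark zone genes, 14 were compared, 11 were lower in IgG1 cells and the median difference was -0.44. It was -0.34 in set 1 and -0.96 in set 2. Within set 1, a median of 7 of the 15 genes was detected per IgG1 cell and 7.5 per IgG2b or IgG2c cell. Within set 2 the medians were 5.5 in IgG1 cells and 8.5 in IgG2b or IgG2c cells, so the gap lay mostly in set 2. Past the level rule were Ccnb2 and Foxo1, 2 of 14 and both lower, where 1.65% of all genes were. Ccnb2 is 1 of 4 dark zone genes that are also on the G2/M list. Foxo1, the transcription factor that maintains the dark zone program, was detected in 4 of 14 IgG1 cells (median 0.353) and 14 of 22 IgG2b or IgG2c cells (median 2.57), a difference of -2.07 that lay mostly in set 2 (-0.72 in set 1 and -4.08 in set 2). Foxo1 stayed past the rule in 24 of the 36 comparisons that leave out 1 cell. Cxcr4, the chemokine receptor of dark zone cells, was detected in 7 of 14 IgG1 cells (up to 9.51) and 12 of 22 IgG2b or IgG2c cells (up to 214.5), a difference of -1.32. Kif22, a chromosome-binding kinesin that is not on the G2/M list used here, differed by -1.56. Past the share rule were 2 of the 14, Ccnb2 and Kif22, both detected in fewer IgG1 cells, where 0.776% of all genes were.

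Of 24 light zone genes, 10 were compared, 8 were higher in IgG1 cells and the median difference was 0.97. Swap70, described above, was the only one past the level rule, where 1.32% of all genes were past it and higher. Cd83, a surface marker of light zone cells, differed by just under the required 2: it was detected in 7 of 14 IgG1 cells (0 to 299.3) and 5 of 22 IgG2b or IgG2c cells (0 to 16.2), with differences of 1.38 in set 1 and 2.92 in set 2. Cd83 was detected in 50.4% of IgM cells. Cd86, a costimulatory ligand, differed by 1.01. The pattern of the list was not even across the cells. In set 2, and among cells whose dominant gene held over 80% of the heavy chain sum, 5 of the 10 genes were higher and 5 lower in IgG1 cells.

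Myc, which is induced in cells selected in the light zone, was detected in 0 of 14 IgG1 cells and 2 of 22 IgG2b or IgG2c cells. Neil1, a DNA glycosylase on the germinal centre list, was past the level rule and lower in IgG1 cells, with detection in 10 of 14 IgG1 cells (median 39.1) and 21 of 22 IgG2b or IgG2c cells (median 107.0) and a difference of -2.05. Neil1 stayed past the rule in 22 of the 36 comparisons that leave out 1 cell. It was 1 of 20 germinal centre genes compared, a share near the 2.97% of all genes past the rule.

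**Figure D5:**
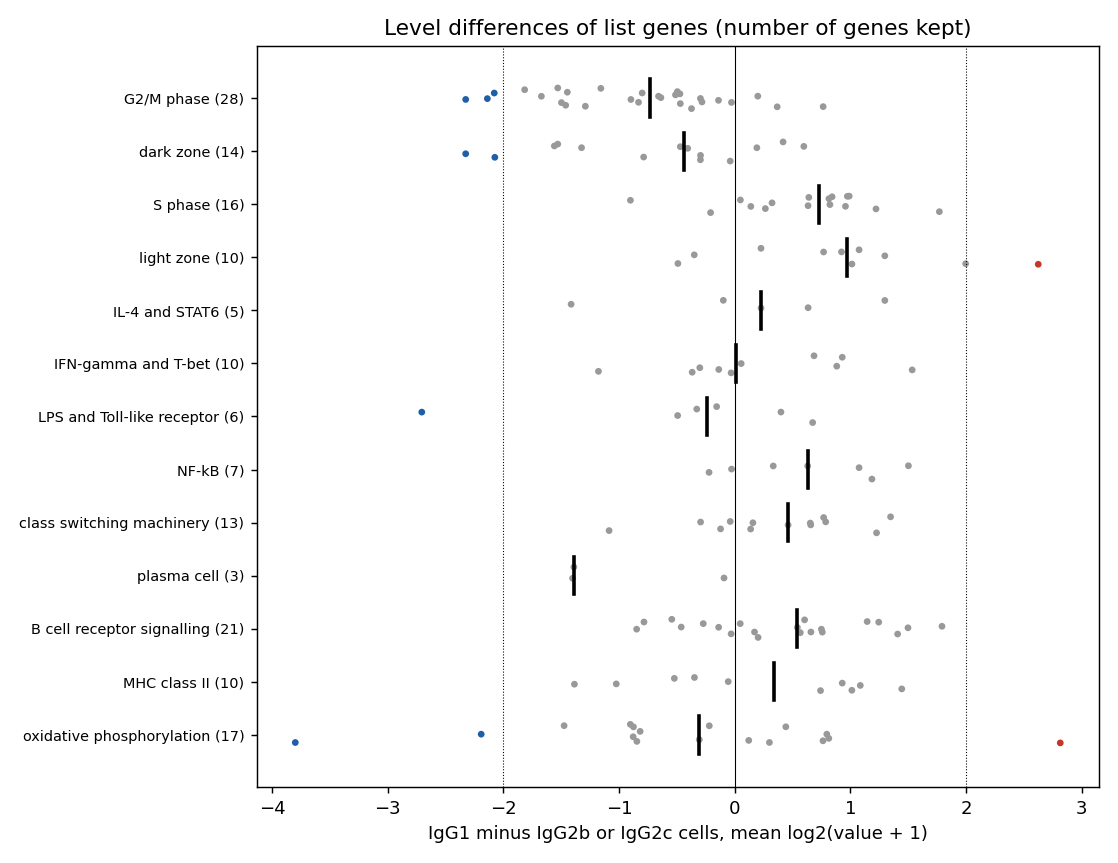
Difference in mean log2(value + 1), IgG1 minus IgG2b or IgG2c cells (x axis), for each compared gene of 13 lists (rows, number of genes compared in brackets), with a black bar at the list median, dotted lines at -2 and 2, and genes past the level rule in red (higher) or blue (lower). The G2/M median is -0.73 and the S phase median 0.73, and the IL-4, IFN-gamma and class switching lists, with 5, 10 and 13 genes compared, hold no gene past the level rule, which 2.97% of all genes passed.

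The pathways known to direct these isotypes were mostly too little detected to compare. Of 14 genes of the IL-4 and STAT6 list in the table, 5 were compared and 0 were past the level rule, which 2.97% of all genes passed. Il4ra, the IL-4 receptor chain, was detected in 4 of 14 IgG1 cells and 5 of 22 IgG2b or IgG2c cells, a difference of -0.10, and Stat6 in 3 IgG1 cells and 4 IgG2b or IgG2c cells. Fcer2a, the low affinity IgE receptor CD23 that IL-4 induces in B cells, differed by 4.40 in set 1 and by -3.30 in set 2, so that its pooled difference of 1.30 describes neither set. Il4i1, an IL-4-induced amino acid oxidase gene, differed by 0.23, the shared cytokine receptor chain Il2rg by 0.63 and the kinase Jak1 by -1.41.

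Of 32 genes of the IFN-gamma and T-bet list in the table, 10 were compared and 0 were past the level rule, with 5 higher, 5 lower and a median of 0.01. Tbx21, the gene of T-bet, was detected in 0 of 14 IgG1 cells and 0 of 22 IgG2b or IgG2c cells, which by an exact interval allows up to 23.2% of IgG1 cells and 15.4% of IgG2b or IgG2c cells. Ifngr1, a chain of the IFN-gamma receptor, was detected in 6 of 14 IgG1 cells and 10 of 22 IgG2b or IgG2c cells, a difference of -0.03. The largest differences on this list were those of Irf8, 1.53 but of opposite sign in the sets, and of the immunoproteasome gene Psmb9, -1.18. Of 18 TGF-beta and SMAD genes only Skil and Cbfb were detected in enough cells, with differences of -0.01 and 0.73. Tgfbr1 was detected in 3 of 14 IgG1 cells and 4 of 22 IgG2b or IgG2c cells.

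The machinery of switching itself was compared in 13 of 35 listed genes in the table. Of the 13, 9 were higher in IgG1 cells, the median was 0.46 and 0 were past the level rule, where 2.97% of all genes were, a share that comes to less than 1 gene in a list of 13. Rif1, which protects DNA ends from resection, was past the share rule, with detection in 12 of 14 IgG1 cells (85.7%, 57.2 to 98.2) and 9 of 22 IgG2b or IgG2c cells (40.9%, 20.7 to 63.6). It was the only 1 of the 13 past the share rule, where 0.439% of all genes were past it and higher. Rad50, of the complex that senses DNA breaks, differed by 1.35, and Hnrnpl, an RNA-binding protein gene, by -1.09.

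Among antibody genes, the light chain constant genes listed were not in the table. Ighv1-72, the variable gene known for binding the hapten NP, was detected in 2 of 14 IgG1 cells (14.3%, 1.78 to 42.8) and 8 of 22 IgG2b or IgG2c cells (36.4%, 17.2 to 59.3), in 5 of the 13 IgG2b and 3 of the 9 IgG2c cells. These intervals overlap, and in 11 IgG1 cells and 9 IgG2b or IgG2c cells the summed variable gene value was too low to name a dominant variable gene. Igj, the joining chain, differed by -1.40 and Mzb1, a chaperone of antibody assembly, by -1.39, both nearly the same in the sets and both short of the rule. Pou2af1, a coactivator of immunoglobulin genes, differed by 1.56. Prdm1, the plasma cell regulator, was detected in 0 of 14 IgG1 cells and 1 of 22 IgG2b or IgG2c cells, and Irf4 in 1 IgG1 cell and 0 IgG2b or IgG2c cells. Of the 9 plasma cell genes in the table, 4 were undetected on each side, Sdc1 among them, and the summed value of the list ran from 3.97 to 265.5 in IgG1 cells and from 1.28 to 2042.8 in IgG2b or IgG2c cells.

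The lists of receptors and signalling genes were read against the 2.97% of all genes past the level rule. Of 8 Fc and complement receptor genes in the table, 5 were compared and 0 were past the level rule. Fcgr2b, the inhibitory receptor for IgG, was detected in 3 of 14 IgG1 cells and 7 of 22 IgG2b or IgG2c cells, a difference of 0.13. Cr2, the complement receptor CD21, was detected in 10 of 14 IgG1 cells (71.4%, 41.9 to 91.6) and 8 of 22 IgG2b or IgG2c cells (36.4%, 17.2 to 59.3), short of the share rule. Its level difference of 0.28 was 0.85 in set 1 and -0.57 in set 2, so the level had no common direction. Of 22 B cell receptor signalling genes, 21 were compared, 14 were higher in IgG1 cells with a median of 0.54, and 0 passed. The list median was 0.63 in set 1 and -0.15 in set 2. Syk, the kinase next to the receptor, had the largest difference, 1.79 (2.27 in set 1 and 1.09 in set 2). Of 20 LPS and Toll-like receptor genes in the table, 6 were compared and Unc93b1 alone passed.

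Respiratory chain genes held the leading gene Sdhb but had no common direction. Of 21 oxidative phosphorylation genes, 17 were compared, 7 were higher and 10 lower in IgG1 cells, with a median of -0.31 that was -1.12 in set 1 and 0.24 in set 2. Of the 17, 3 were past the level rule, against 2.97% of all genes. Sdhb and Cox6a1, a subunit of cytochrome c oxidase, were past the level rule and lower, and Ndufa1 was past it and higher. Cox6a1 had medians of 2.14 in IgG1 cells and 15.3 in IgG2b or IgG2c cells, and its difference of -2.19 was -3.40 in set 1 and -0.40 in set 2. Whichever of the 36 cells was left out, Sdhb stayed past the rule, while Cox6a1 did so 24 times.

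Fos, the immediate early gene on the stress list, was past the level rule, with detection in 7 of 14 IgG1 cells and 6 of 22 IgG2b or IgG2c cells and a difference of 2.05. It was the only 1 of 10 stress genes compared to pass, where 1.32% of all genes were past the rule and higher. Of the 10, 6 were higher and 4 lower in IgG1 cells, with list medians of -0.02 in set 1 and 1.00 in set 2. Fos stayed past the rule in 21 of the 36 comparisons that leave out 1 cell. Casp8, the initiator caspase of death receptors, was past the share rule, with detection in 8 of 14 IgG1 cells (57.1%, 28.9 to 82.3) and 3 of 22 IgG2b or IgG2c cells (13.6%, 2.91 to 34.9). It was the only 1 of 4 cell death genes compared to pass the share rule, where 0.439% of all genes were past it and higher.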

How the data were processed

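Single germinal centre B cells were captured on the Fluidigm C1, amplified with the SMARTer kit and sequenced from Nextera XT libraries, per the labels' protocols. The deposited table gives 1 normalized signal per gene and cell, not on a log scale. The authors' steps named in the submitters' processing notes are TopHat2 2.0, Cufflinks 2.2, Cuffdiff and the mm10 build, and the normalization is not given in the sources used here. Being normalized, the signal is not a count, so no count model was used, and the depth behind each value is unknown. The table has 17035 rows for 17034 symbols, and 1 repeated symbol was dropped.

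The column sets were recognised because 2 cells of different sets shared 0% of exactly equal non-zero values, while cells of 1 set shared at least 61.9% of values. The normalization is unknown, and any shift of low values by it could move a gene across the detection limit of 1. Whether it did was not tested.

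Members and gene lists (36 lists, 503 genes, 462 in the table) were chosen with earlier results of these data known. The level difference was the least squares coefficient of side, with column set as covariate, on log2(value + 1), in numpy 2.4.6 and pandas 2.3.3 under Python 3.11.15. Exact intervals came from scipy 1.17.1. Figures were drawn with matplotlib 3.10.9.

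Genes were named by a rule: the 12 highest and 12 lowest level differences past the level rule, the 5 widest share gaps each way, members of the isotype pathway, NP-binding and Fc receptor lists, of each other list the 4 largest differences and any gene past a rule, and a few regulators and markers. A few genes under this rule stay in the list counts but are not reported here by name. Other pseudocounts, filters, sizes, detection limits, member definitions, single sets, ranks and leaving out each cell were tried as alternatives.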

Additional observations from a re-analysis of the deposited data

How the results depend on the processing

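How many genes passed the level rule depended on the settings. A pseudocount of 0.1 gave 327 genes and one of 10 gave 7. Set 1 alone (8 IgG1 cells and 14 IgG2b or IgG2c cells) gave 250 and set 2 alone (6 IgG1 cells and 8 IgG2b or IgG2c cells) 404, both with fewer cells and with no sign required in a second set. A dominant gene over 80% of the sum (10 IgG1 cells and 14 IgG2b or IgG2c cells) gave 210, a sum of at least 100 gave 149, and IgG1 against IgG2c cells alone gave 215. Detection in at least 50% of cells gave 46 (of 818 genes), a size of at least 1 gave 653 and of at least 3 gave 3. Leaving out each cell in turn gave 86 to 109 genes, with at least 66 of the 88 among them each time and 32 of the 88 past the rule every time. Without cell 122, an alternative added after the data had been seen, 94 genes passed, 71 of them among the 88, and 24 of 28 G2/M genes were lower in IgG1 cells.

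The share rule gave 20 genes with detection at a value of at least 5, 134 with a dominant gene over 80%, 168 at a difference of at least 30 points and 5 at 50 points. Leaving out each cell gave 38 to 57 genes. Between IgG2b and IgG2c cells, pseudocounts of 0.1 and 10 gave 504 and 29 genes. The cause of these shifts was not tested, apart from thresholds that admit more or fewer genes by construction. Gnas, Srrt, Prpf38b, Sdhb, Cnn2 and Unc93b1 stayed past the level rule under all alternatives that kept both sets and all 3 kinds of cell, at a size of 2. Comparisons with IgG2b or IgG2c cells alone fall outside this, and Sdhb, Cnn2 and Unc93b1 were higher in IgG2b than in IgG2c cells. Few cells per side and an unknown read depth limit what can be said of genes near the detection limit, and the labels' single group leaves no replicate animals.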
